A study of Homo sapiens with 6 samples.

Results

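The genes described here are 37 amino acid and peptide transporter genes, the members of 7 solute carrier families (SLC1A, SLC6A, SLC7A, SLC15A, SLC36A, SLC38A and SLC43A) among the 17211 genes measured. They were chosen by symbol alone: every protein-coding gene of these families with a number, except SLC7A11, and no pseudogene or antisense gene. The families hold 61 such genes in the naming table, so 24 are not listed in the deposited table, and nothing is said of their level. The listed genes are 5 of 7 SLC1A, 7 of 19 SLC6A, 7 of 12 SLC7A, 3 of 5 SLC15A, 2 of 4 SLC36A, 10 of 11 SLC38A and 3 of 3 SLC43A genes. All 37 passed the filter used for testing, a mean deposited value of at least 1. RNA came from CAOV2 human ovarian cancer cells, named in the labels both as a cell line and as primary cells, and grown in one medium with serum. There were 3 libraries from cells transfected for 2 days with siRNA against TAZ (siTAZ) and 3 from cells transfected in the same way with a non-targeting control siRNA (siNT). All cells were collected on day 3. TAZ is the coactivator of the Hippo pathway encoded by WWTR1, and all samples come from 1 cell line, with no second siRNA or rescue among the samples used here. The comparison is of transcript levels with and without TAZ silencing.

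Cells cannot make all amino acids and cannot pass them freely through the plasma membrane, so uptake rests on carrier proteins. Some carriers use the sodium or proton gradient to concentrate a substrate, others exchange one amino acid for another, and a few let them flow down their gradient. SLC7A light chains work only when paired with a heavy chain, SLC3A2 (CD98hc) or SLC3A1 (rBAT). In absorptive epithelium of gut and kidney, one set of carriers sits in the apical brush border and another in the basolateral membrane. On lysosomes, several carriers release amino acids to the cytosol, where leucine, arginine and glutamine are sensed by the machinery that switches on mTORC1.

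The libraries held 25478595 to 34488196 reads in genes. Values are the authors' reads divided by 1 size factor per library, called the level below, and group values are mean ± SD with n = 3. WWTR1 levels were 4359, 4217 and 4258 in siNT and 242, 277 and 279.7 in siTAZ, so the silencing was seen in every siTAZ library. Per the labels these are ovarian cancer cells, but of 10 markers of ovarian epithelial cancer WT1 and SOX17 were not listed, and PAX8 (a Müllerian lineage factor) was scarce at 28.8 ± 13.9 in siNT and 18.2 ± 3.28 in siTAZ. The 8 listed summed to 81986 to 88866 in siNT and 68793 to 75193 in siTAZ, nearly all of it from the keratins KRT7, KRT8 and KRT18. Of the 8, 4 rose, among them EPCAM (an epithelial adhesion protein, 2.72-fold) and KRT8 (1.12-fold), and 2 fell, KRT7 (2.66-fold, with 22847 ± 1266 in siNT against 8604 ± 879 in siTAZ) and KRT18 (1.23-fold). Enterocyte markers were present: 6 of 8 were listed, and all 6 rose in siTAZ, among them CDX2 (290.0 ± 27.1 in siNT and 844 ± 34.1 in siTAZ), VIL1 and CDH17. Their summed level was 8848 to 9535 in the siNT libraries and 25850 to 26704 in the siTAZ libraries, and CDX1 and SI were not listed. None of 5 endothelial markers was listed, nor PTPRC, CD3E and CD3D of leukocytes. The 3 listed leukocyte markers summed to 137 to 162 in siNT and 256 to 295 in siTAZ, 5 of 6 fibroblast markers to 4592 to 5331 and 5271 to 6064, and 3 of 5 neuron markers to 678 to 730 and 718 to 794. Single markers in these sums moved both ways. Of the leukocyte markers 2 rose (LYZ 6.08-fold) and 1 fell (CD79A, 1.87-fold). Of the fibroblast markers 2 rose (COL3A1 2.13-fold, PDGFRB 3.39-fold) and 1 fell (COL1A2, 9.69-fold). Of the neuron markers 1 rose (SYT1, 1.61-fold) and 1 fell (SYP, 3.07-fold).

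Of the 37 transporter genes, 17 rose, 8 fell and 12 did not pass the test (limma, Benjamini-Hochberg adjusted p under 0.05 over 17204 genes). Over all genes tested 55.8% were called, 28.3% as higher and 27.5% as lower, so a call alone says little here. Rises of at least 2-fold were found for 8 of the transporter genes, against 6.7% of all genes, and falls of that size for 0, against 3.91%. The 8 were SLC6A19, SLC7A9, SLC7A8, SLC6A4, SLC38A11, SLC1A1, SLC43A2 and SLC15A1. The median log2 fold change, siTAZ over siNT, of level + 1 was 0.21 over the transporter genes and 0.00 over all genes tested. These counts and the median describe the listed genes and not the whole families. Libraries of the 2 groups did not overlap for 28 of the 37, against 61.4% of all genes.

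**Figure D1:**
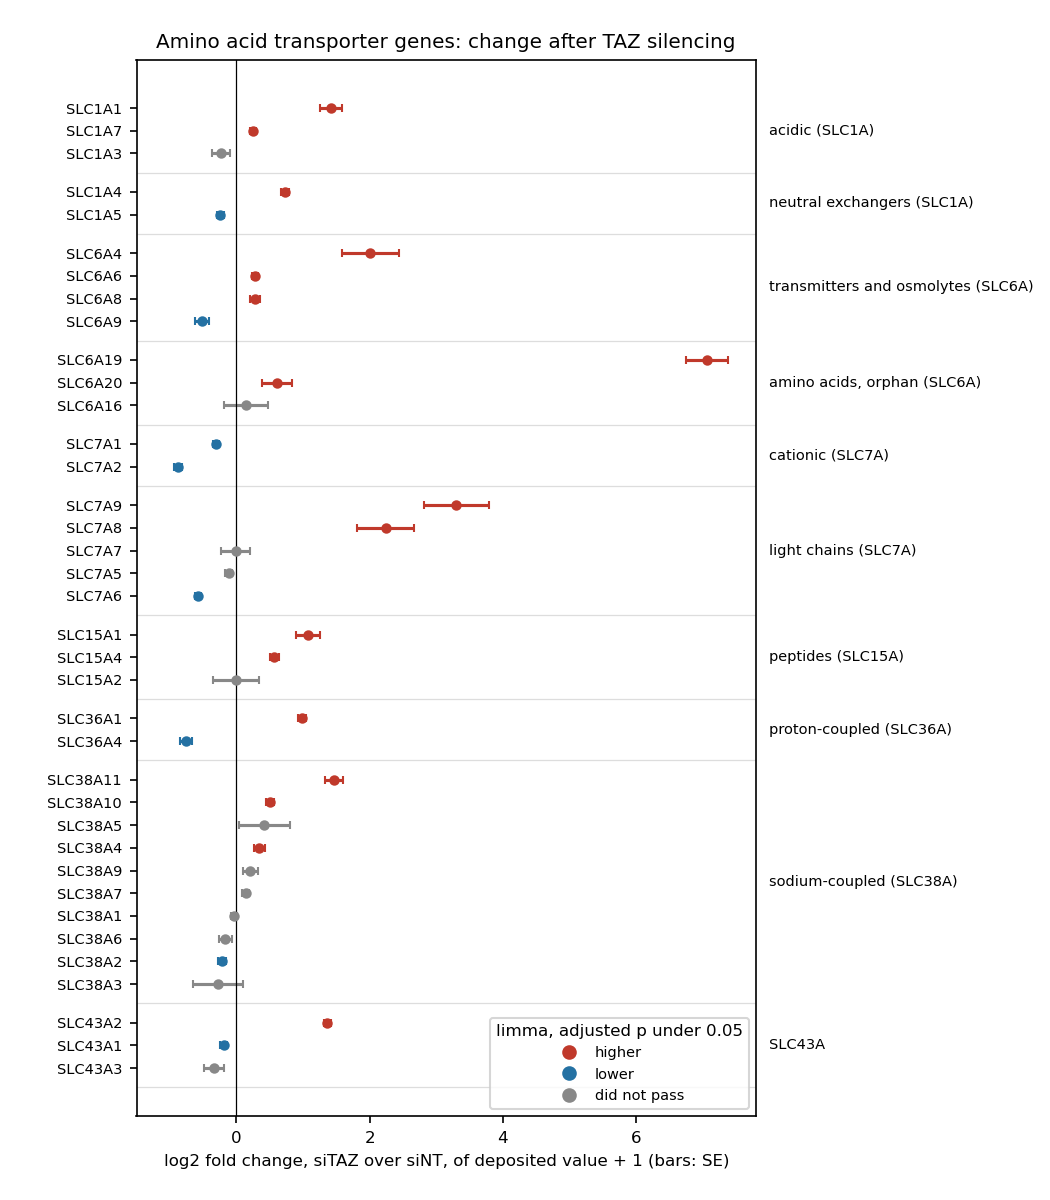
Log2 fold change (siTAZ over siNT, of deposited value + 1) for the 37 transporter genes, grouped by role, with bars of 1 SE from limma. The 17 genes that rose are red, the 8 that fell blue and the 12 that did not pass grey. SLC6A19 at 7.06 lies far to the right, with 0 reads in siNT, and both cationic carriers lie to the left.

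**Figure D2:**
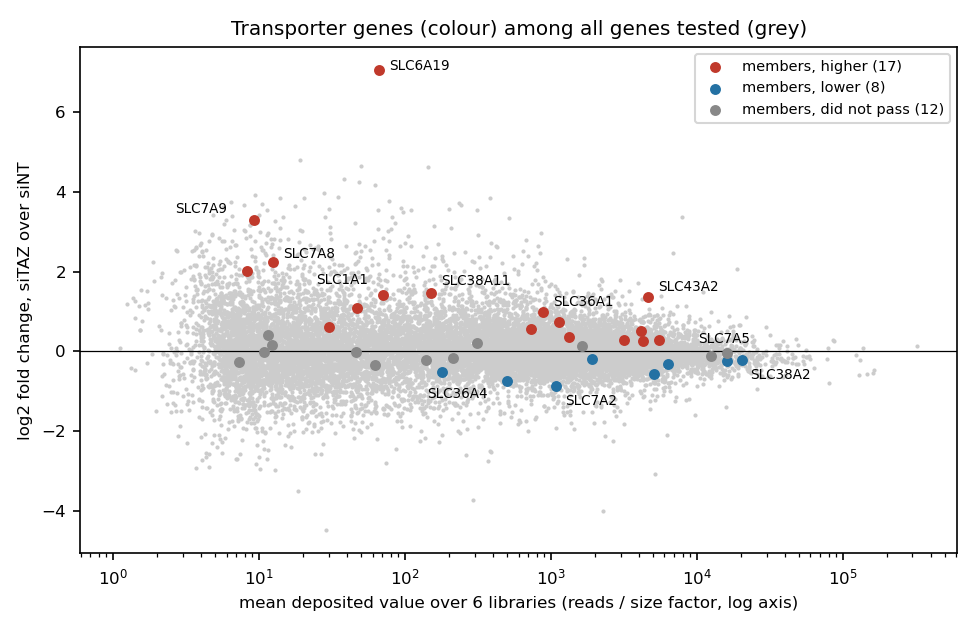
Mean level over 6 libraries (log axis) against log2 fold change for the 37 transporter genes (coloured by call) and all 17204 genes tested (grey). The larger rises sit among scarce genes, with SLC43A2 the exception above a mean level of 1000, and the most abundant carriers lie near 0.

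Of the 4 carriers with the most transcript, SLC1A5 and SLC38A2 fell slightly, and SLC7A5 and SLC38A1 did not pass. Scaled to the longest transcript, the highest levels per kb over all 6 libraries were those of SLC1A5, SLC38A2, SLC7A5 and SLC38A1, followed by SLC1A7 and SLC38A10. SLC1A5 (ASCT2, ENSG00000105281), a sodium-dependent exchanger that brings in glutamine, had levels of 16471, 17699.8 and 18256 in siNT and 15661, 14188 and 14569.9 in siTAZ. The groups did not overlap, although siNT replicate 1 and siTAZ replicate 1 lay close, and the gene fell 1.18-fold (limma adjusted p = 7.5e-04 for a log2 fold change of -0.24 with SE 0.05). An antisense gene that is not listed, AC008622.2, shares 23.4% of its exonic bases. SLC38A2 (SNAT2, ENSG00000134294), a sodium-coupled carrier of small neutral amino acids induced by amino acid lack, had levels of 23748, 20640.4 and 21066 in siNT and 16919.5, 19742 and 19742 in siTAZ. It fell 1.16-fold (limma adjusted p = 0.0081 for a log2 fold change of -0.22 with SE 0.06), with the highest library in siNT replicate 1 and the lowest in siTAZ replicate 1. The call was lost without the intensity trend in limma (adjusted p = 0.10, range over 17 alternatives 0.0034 to 0.10).

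SLC7A5 (LAT1, ENSG00000103257), the light chain that exchanges intracellular glutamine for leucine and other large neutral amino acids, had levels of 11969, 13162 and 13628 in siNT and 12656, 11255 and 11771 in siTAZ. These overlapped, and it did not pass (limma adjusted p = 0.078 for a log2 fold change of -0.12 with SE 0.06). Its call as lower appeared without siNT replicate 1 (adjusted p = 0.0094) or without siTAZ replicate 1 (adjusted p = 0.0090), and processed copies of SLC7A5 elsewhere in the genome can share its reads. SLC38A1 (SNAT1, ENSG00000111371), a glutamine carrier, had levels of 17162, 15561 and 16480.4 in siNT and 15126, 16333 and 16470.1 in siTAZ. Its groups overlapped (limma adjusted p = 0.54 for a log2 fold change of -0.04 with SE 0.05).

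Summed per kb, the 37 genes came to 24086 ± 326 in siNT and 23508 ± 248 in siTAZ. The 4 leading carriers together made up 64.4%, 63.3% and 64.2% of that sum in siNT and 57.1%, 57.9% and 58.5% in siTAZ. The other 33 genes summed to 8678 ± 186 per kb in siNT and 9922 ± 246 in siTAZ. The share of the 4 was thus lower in each siTAZ library than in any siNT library. No test was run on these sums, since the genes were grouped with their levels known.

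**Figure D3:**
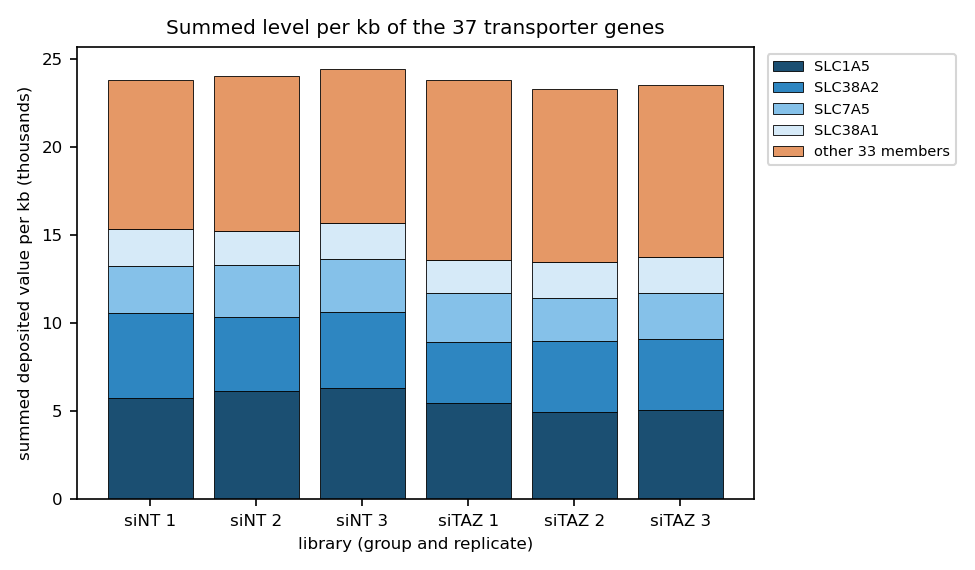
Stacked bars of summed level per kb (axis in units of 1000) in each of the 6 libraries for SLC1A5, SLC38A2, SLC7A5 and SLC38A1 and for the other 33 transporter genes. Bar heights are alike, and the blue part of the 4 leading carriers is shorter in the 3 siTAZ libraries, at 57.1% to 58.5% against 63.3% to 64.4%.

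Of a list of 10 apical carriers of gut and kidney epithelium, 7 were listed. Of these 7, 6 passed as higher, 0 fell and SLC15A2 did not pass. For comparison, 28.3% of the whole measured set passed as higher. The count of 6 became 5 with a filter of 1 CPM in 3 samples and in DESeq2. The count was also 5 without siNT replicate 2, without siTAZ replicate 1 and without siTAZ replicate 3. The median log2 fold change of the 7 was 1.08. SLC6A19 and SLC7A9 had no or few reads in siNT. The 250 bases before the RefSeq start of these genes (GRCh38.p14) are shown since they are the starts of the transcripts that were near the floor without TAZ silencing. They are printed 5′ to 3′ on the gene's strand, with no letters in capitals because none of the 3 motifs searched below occurs in them. SLC6A19 lies on the plus strand at chr5:1201345-1201594 and SLC7A9 on the minus strand at chr19:32869768-32870017.
SLC6A19: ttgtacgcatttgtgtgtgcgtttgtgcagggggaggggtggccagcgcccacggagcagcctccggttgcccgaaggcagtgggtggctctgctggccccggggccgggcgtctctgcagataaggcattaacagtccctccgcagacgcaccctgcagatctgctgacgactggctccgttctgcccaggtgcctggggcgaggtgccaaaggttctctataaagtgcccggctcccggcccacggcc
SLC7A9: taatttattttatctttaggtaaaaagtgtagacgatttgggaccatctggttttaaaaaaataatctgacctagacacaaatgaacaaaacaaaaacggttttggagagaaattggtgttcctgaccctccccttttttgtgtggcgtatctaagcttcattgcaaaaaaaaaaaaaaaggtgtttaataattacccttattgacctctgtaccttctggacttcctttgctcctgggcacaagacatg

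SLC6A19 (B0AT1, ENSG00000174358), the sodium-dependent carrier of neutral amino acids in the brush border, had 0 reads in each siNT library, and levels of 148, 125 and 126 in the siTAZ libraries. Against a floor of 3 reads per library this is at least 40.0-fold higher (limma adjusted p = 1.3e-11). SLC7A9 (b0,+AT, ENSG00000021488), which exchanges cystine and cationic for neutral amino acids, had 3 reads in all in siNT and 56 in siTAZ. The ratio of reads, after the size factors, was 15.7 with an exact 95% interval of 5.11 to 78.6 that covers counting error only (limma adjusted p = 2.4e-05). Both genes were thus seen in every siTAZ library, at low levels. In bulk RNA, fewer cells of a type and less RNA per cell cannot be told apart, so the data do not tell whether few or most cells carried these reads.

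The partners of these 2 carriers did not move alike. SLC3A1 (rBAT, ENSG00000138079), the heavy chain that carries SLC7A9 to the surface, had levels of 146, 140.0 and 104 in siNT and 275, 262 and 267 in siTAZ. It rose 2.06-fold with no overlap (limma adjusted p = 1.2e-06), but 29.4% of its exonic bases are shared with PREPL on the other strand, and whether reads were counted by strand is not stated. A protein-coding gene on the same strand, AC013717.1, shares 26.9% of the exonic bases of SLC3A1 and is not listed. CLTRN (collectrin), which carries SLC6A19 to the membrane in kidney, was near the floor at 3.32 ± 0.263 in siNT and 4.95 ± 1.28 in siTAZ and did not pass. It shares 22.6% of its exonic bases with AC097625.1, a protein-coding gene on the same strand that is not listed. The scaffold genes PDZK1 and NHERF1, whose PDZ domains hold carriers at the apical membrane, rose 4.86-fold and 2.18-fold. PDZK1 had 99.0 ± 7.25 in siNT and 481 ± 30.2 in siTAZ, and NHERF1 had 4607 ± 338 in siNT and 10032 ± 576 in siTAZ. Of 6 listed genes for subunits and partners, 4 rose, 0 fell and 2 did not pass (median 0.75).

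SLC1A1 (EAAT3, ENSG00000106688), which takes up glutamate, aspartate and cysteine, had levels of 37.7, 32.1 and 44.7 in siNT and 89.4, 109 and 111 in siTAZ. Each siTAZ library was above each siNT library, a 2.70-fold rise (limma adjusted p = 1.7e-06 for a log2 fold change of 1.42 with SE 0.17). SLC15A1 (PEPT1, ENSG00000088386), the proton-coupled carrier of dipeptides and tripeptides from digestion, had levels of 33.5, 27.8 and 27.8 in siNT and 71.7, 56.0 and 64.0 in siTAZ. It rose 2.15-fold (limma adjusted p = 8.7e-05 for a log2 fold change of 1.08 with SE 0.18), again with no overlap. SLC36A1 (PAT1, ENSG00000123643), a proton-coupled carrier of glycine, alanine and proline found in the brush border and on lysosomes, had levels of 602, 585 and 585 in siNT and 1224, 1140.0 and 1133 in siTAZ. Its replicates lay close within each group, and it rose 1.97-fold (limma adjusted p = 6.4e-10 for a log2 fold change of 0.98 with SE 0.06).

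SLC6A20 (SIT1, ENSG00000163817), the carrier of proline and other imino acids, had levels of 26.2, 19.2 and 25.4 in siNT and 44.7, 31.2 and 34.1 in siTAZ. It rose 1.55-fold at the edge of the test (limma adjusted p = 0.030 for a log2 fold change of 0.61 with SE 0.23), and the call was lost without siNT replicate 2 (adjusted p = 0.10), without siTAZ replicate 1 (0.14), without siTAZ replicate 3 (0.052) and in DESeq2 (0.10), with a range of 0.020 to 0.14 over 17 alternatives. SLC15A2 (PEPT2), the high-affinity peptide carrier of kidney, stayed scarce at 10.7 ± 1.33 in siNT and 11.02 ± 3.69 in siTAZ and did not pass. The enterocyte markers given above moved with the 6 genes that rose, and their part in these rises was not tested. Of the 6 proximal tubule markers, 3 were listed, with summed levels of at most 35.3 in siNT and 46.8 in siTAZ, and LRP2, SLC34A1 and SLC22A6 were not listed. Of the 3, all scarce, SLC5A2 rose 5.66-fold, AQP1 fell 3.04-fold and CUBN did not pass.

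**Figure D4:**
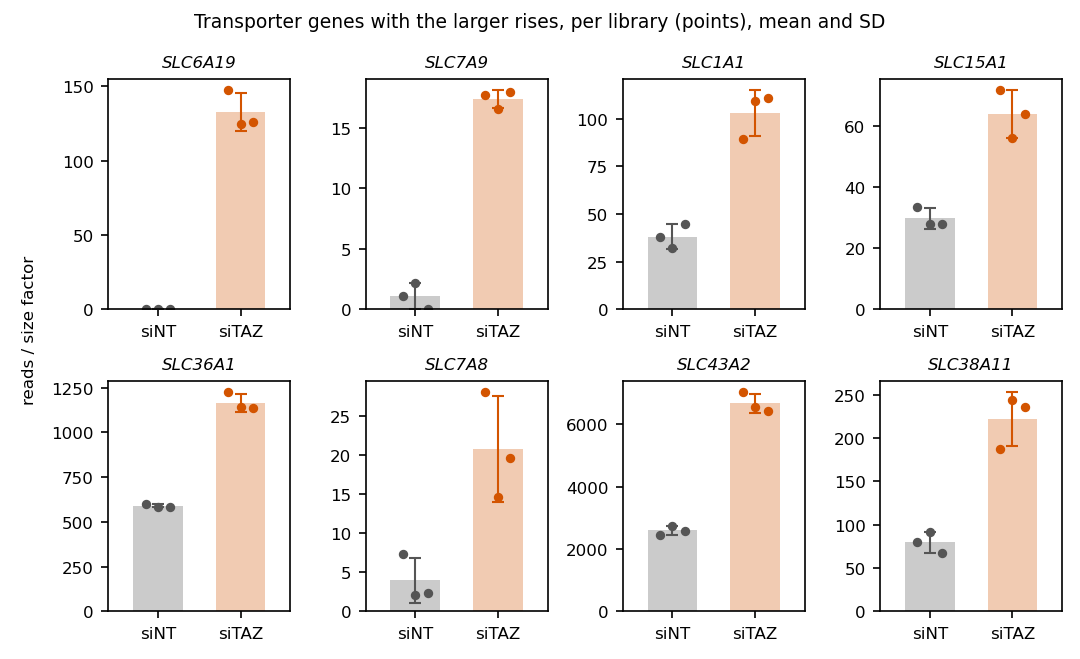
Level (reads divided by size factor) in each library (points), with group mean (bar) and SD (error bar), for 8 transporter genes with larger rises, n = 3 per group. In all 8 panels the 3 siTAZ points lie above the 3 siNT points, and the vertical scales differ between panels, with SLC43A2 the most abundant.

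Carriers placed in the basolateral membrane of epithelium or pairing with SLC3A2 moved in both directions. Of the 4 transporter genes on the basolateral list, SLC43A2 and SLC7A8 rose, SLC43A1 fell and SLC7A7 did not pass. The only fall on this list thus rests on the placing of SLC43A1, whose membrane site was not tested. The list leaves out basolateral carriers of other families, such as SLC16A10, which rose 1.89-fold. SLC43A2 (LAT4, ENSG00000167703), which lets branched-chain amino acids, phenylalanine and methionine leave the cell, had levels of 2463, 2744 and 2588 in siNT and 7028, 6549 and 6438 in siTAZ. It rose 2.57-fold (limma adjusted p = 2.5e-12 for a log2 fold change of 1.36 with SE 0.05), and per kb went from 319 to 820.0. Among the 16 transporter genes with a mean level of 1000 or more this was the largest change in either direction. Its relative SLC43A1 (LAT3), which carries the same substrates, fell 1.14-fold, with 2025 ± 87.4 in siNT against 1771 ± 74.0 in siTAZ (limma adjusted p = 0.0059). SLC43A3, a nucleobase carrier despite its family, did not pass at 69.9 ± 1.52 in siNT and 55.2 ± 4.45 in siTAZ (limma adjusted p = 0.067). A protein-coding gene on the same strand, AP000781.2, shares 29.9% of its exonic bases and is not listed.

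SLC7A8 (LAT2, ENSG00000092068), the basolateral neutral amino acid exchanger, had levels of 7.33, 2.14 and 2.42 in siNT and 28.1, 14.7 and 19.6 in siTAZ. The groups did not overlap, and it rose 5.25-fold from a level near the floor (limma adjusted p = 2.6e-04 for a log2 fold change of 2.24 with SE 0.43, log2 fold change 1.14 to 2.69 over 16 alternatives). SLC7A7 (y+LAT1), the basolateral exporter of cationic amino acids, did not pass at 45.3 ± 3.15 in siNT and 46.6 ± 15.8 in siTAZ. SLC7A6 (y+LAT2, ENSG00000103064), its widely expressed relative that exchanges arginine for glutamine with sodium, had levels of 6070.2, 5885 and 6177 in siNT and 4092, 4096 and 4014 in siTAZ. It fell 1.49-fold with replicates close together (limma adjusted p = 1.0e-08 for a log2 fold change of -0.57 with SE 0.04). This value is uncertain, since 44.4% of the exonic bases of SLC7A6 are shared with SLC7A6OS on the other strand. The heavy chain SLC3A2, on which SLC7A5, SLC7A6, SLC7A7 and SLC7A8 depend, did not pass at 8340.3 ± 443 in siNT and 8628 ± 415 in siTAZ (limma adjusted p = 0.43).

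Both listed cationic carriers fell. SLC7A1 (CAT1, ENSG00000139514), the general importer of arginine and lysine, had levels of 6847, 6915 and 7196 in siNT and 5712, 5596 and 5574 in siTAZ. No siTAZ library reached the siNT range, and it fell 1.24-fold (limma adjusted p = 1.2e-05 for a log2 fold change of -0.31 with SE 0.04). SLC7A2 (CAT2, ENSG00000003989), its inducible relative, had levels of 1483, 1381 and 1370.3 in siNT and 701, 800.4 and 805 in siTAZ. It fell 1.84-fold (limma adjusted p = 6.6e-09 for a log2 fold change of -0.88 with SE 0.07), and of the 8 genes that fell it had the largest log2 fold change in size. SLC36A4 (PAT4, ENSG00000180773), a high-affinity proline and tryptophan carrier, had levels of 719, 609 and 555 in siNT and 343, 388 and 376 in siTAZ. It fell 1.70-fold (limma adjusted p = 1.8e-06 for a log2 fold change of -0.76 with SE 0.09), opposite in direction to SLC36A1 of the same family.

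**Figure D5:**
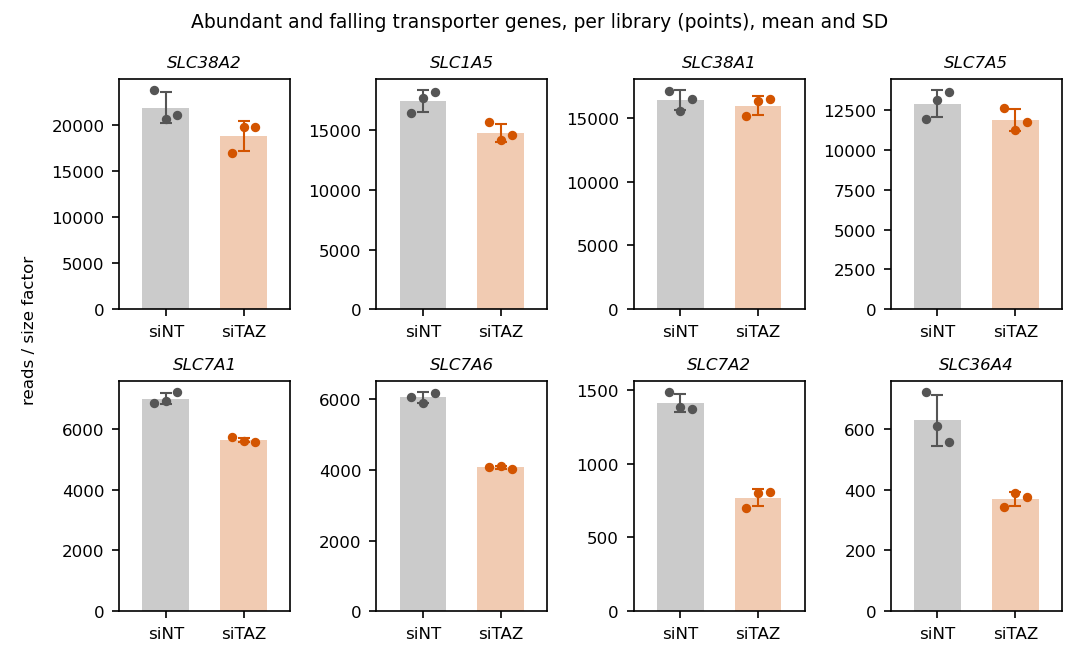
Level (reads divided by size factor) in each library (points), with group mean (bar) and SD (error bar), for 4 abundant carriers in the upper row and 4 genes that fell in the lower row, n = 3 per group. SLC38A1 and SLC7A5 overlap between groups, while SLC7A1, SLC7A6, SLC7A2 and SLC36A4 do not.

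Of the 10 listed genes of the sodium-coupled SLC38A family, 3 rose, 1 fell and 6 did not pass. SLC38A11 (ENSG00000169507), a member whose substrates are little studied, had levels of 80.6, 91.9 and 67.7 in siNT and 187, 244 and 235 in siTAZ. It rose 2.77-fold with no overlap (limma adjusted p = 1.1e-07 for a log2 fold change of 1.46 with SE 0.14). SLC38A10 (ENSG00000157637), also little studied and named with glutamine and glutamate transport, had levels of 3223, 3591 and 3494 in siNT and 5235, 4649 and 4731 in siTAZ. It rose 1.42-fold (limma adjusted p = 8.1e-07 for a log2 fold change of 0.50 with SE 0.06), and per kb it stood sixth among the 37 genes. SLC38A4 (SNAT4), a carrier of neutral and cationic amino acids best known from liver, rose 1.27-fold, with 1164 ± 94.3 in siNT against 1482 ± 176 in siTAZ (limma adjusted p = 0.0014).

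SLC38A9 (ENSG00000177058), the lysosomal arginine sensor that signals to mTORC1, had levels of 296, 254 and 315 in siNT and 286, 336 and 384 in siTAZ. The groups overlapped and it did not pass (limma adjusted p = 0.11 for a log2 fold change of 0.21 with SE 0.11), although without siTAZ replicate 1 it did, as higher (adjusted p = 0.0100). SLC38A7 (SNAT7), which exports glutamine from lysosomes, had 1559 ± 70.3 in siNT and 1715 ± 94.1 in siTAZ. Its adjusted p of 0.053 lay at the threshold, and 7 of 17 alternatives called it, as higher (range 0.0085 to 0.17). SLC38A6, SLC38A5 and SLC38A3 did not pass either. SLC38A6 had 224 ± 20.7 in siNT and 199 ± 1.64 in siTAZ, and the other two were scarce, SLC38A5 with 10.1 ± 5.81 in siNT and 12.9 ± 3.37 in siTAZ and SLC38A3 with 8.06 ± 0.706 in siNT and 6.53 ± 0.918 in siTAZ.

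Of the 5 listed SLC1A genes 3 rose, 1 fell and 1 did not pass. SLC1A4 (ASCT1, ENSG00000115902), an exchanger of alanine, serine and cysteine, had levels of 863, 862 and 839.8 in siNT and 1396, 1419.9 and 1433 in siTAZ. It rose 1.66-fold, with replicates close together (limma adjusted p = 6.5e-09 for a log2 fold change of 0.73 with SE 0.05), while its close relative SLC1A5 fell. SLC1A7 (EAAT5, ENSG00000162383), a glutamate transporter known mainly from retina, had levels of 3690.1, 4067 and 3909 in siNT and 4768, 4662 and 4434 in siTAZ. It rose 1.19-fold (limma adjusted p = 4.4e-04 for a log2 fold change of 0.25 with SE 0.05) and stood just below SLC38A1 per kb, at 1475 in siNT and 1752 in siTAZ. An antisense gene, AL445183.2, shares 4.0% of its exonic bases. SLC1A3 (EAAT1), a glutamate transporter best known from glia, did not pass at 150.2 ± 28.0 in siNT and 127 ± 6.36 in siTAZ, though it did, as lower, without siNT replicate 2 (adjusted p = 0.018).

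Of 7 lysosomal members, 5 were listed, and 2 rose, 1 fell and 2 did not pass. Beside SLC36A1, SLC36A4, SLC38A7 and SLC38A9 these include SLC15A4 (PHT1, ENSG00000139370), a histidine and peptide carrier of endolysosomes. SLC15A4 had levels of 588, 601 and 569 in siNT and 910.2, 838 and 865 in siTAZ, a 1.49-fold rise (limma adjusted p = 8.2e-07 for a log2 fold change of 0.57 with SE 0.06). Of 9 amino acid carriers outside the 7 families 6 were listed, and 1 rose, 3 fell and 2 did not pass (median -0.22). The falls came to 1 without the intensity trend, without siNT replicate 2, without siTAZ replicate 2 and without siTAZ replicate 3. SLC17A5 (sialin), a lysosomal exporter of sialic acid and acidic amino acids, fell 1.65-fold, with 689 ± 14.8 in siNT against 417 ± 27.9 in siTAZ, and MFSD12, which brings cysteine into lysosomes, fell 1.16-fold. SLC16A10 (TAT1), the basolateral carrier of aromatic amino acids, rose 1.89-fold, with 36.7 ± 6.64 in siNT against 69.2 ± 12.1 in siTAZ.

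Of the 12 SLC6A carriers of neurotransmitters and osmolytes 4 were listed, and 3 rose and 1 fell. Calls were also made for 55.8% of all genes tested. SLC6A6 (TauT), which takes up the osmolyte taurine, rose 1.22-fold, with 4965 ± 142 in siNT against 6053 ± 104 in siTAZ (limma adjusted p = 3.7e-05 for a log2 fold change of 0.29 with SE 0.04). SLC6A8, the creatine carrier, rose 1.22-fold, with 2856 ± 212 in siNT against 3476 ± 376 in siTAZ, but a near-identical pseudogene copy can share its reads, and the call was lost without the intensity trend (limma adjusted p = 0.0024, or 0.065 without the trend, range over 17 alternatives 4.9e-04 to 0.065). SLC6A9 (GlyT1), a glycine carrier, fell 1.44-fold, with 212 ± 18.6 in siNT against 147 ± 8.50 in siTAZ (limma adjusted p = 4.7e-04 for a log2 fold change of -0.52 with SE 0.10). SLC6A4, the serotonin transporter, which gut epithelium also expresses, had 8 reads in siNT and 44 in siTAZ. Its ratio of reads was 4.64 with an exact 95% interval of 2.16 to 11.4 (limma adjusted p = 7.7e-04). SLC6A16, an orphan member, did not pass at 11.9 ± 4.01 in siNT and 12.7 ± 0.206 in siTAZ.

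Genes that read amino acid supply were also measured. Of 26 genes of the amino acid starvation response, which GCN2 and ATF4 drive, 5 rose, 17 fell and 4 did not pass (median -0.30). Over all genes tested, 28.3% were called as higher and 27.5% as lower. ATF4 itself, which is controlled mainly by translation of its mRNA, did not pass at 4663 ± 125 in siNT and 4377 ± 135 in siTAZ (limma adjusted p = 0.10). STC2, a secreted glycoprotein, fell 1.67-fold, with 6454 ± 347 in siNT against 3875 ± 184 in siTAZ. ATF3, a stress-induced transcription factor, fell 2.44-fold, with 380.4 ± 29.6 in siNT against 156 ± 13.1 in siTAZ, and CHAC1, which degrades glutathione, fell 2.34-fold, with 252 ± 18.7 in siNT against 108 ± 6.22 in siTAZ. The 5 genes of this list that rose were PHGDH (1.53-fold), ALDH1L2 (1.47-fold), PSPH (1.24-fold), ASNS (1.18-fold) and EIF2AK4 (1.09-fold). SLC7A5, SLC38A2, SLC1A5 and SLC7A1, carriers that ATF4 is known to induce, had log2 fold changes of -0.12, -0.22, -0.24 and -0.31, whereas SLC1A4, another such gene, had 0.73. Of these, SLC7A5 did not pass. SLC3A2, its heavy chain, had 0.05 and did not pass. The part of ATF4 in these changes was not tested.

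Of 35 listed genes among 36 of mTORC1 amino acid sensing, 9 rose, 12 fell and 14 did not pass (median -0.03), a share of calls near that of all genes. SESN3, a sestrin of the family whose member SESN2 binds leucine, rose 2.65-fold, with 369 ± 28.4 in siNT against 976 ± 115 in siTAZ (limma adjusted p = 6.5e-10). SESN1, another sestrin, rose 1.85-fold, with 169 ± 13.6 in siNT against 312 ± 30.1 in siTAZ, and FNIP2, a folliculin partner at the lysosome, rose 1.69-fold, with 3438 ± 95.7 in siNT against 5815 ± 246 in siTAZ. Among the 12 genes that fell were RHEB (1.26-fold), KPTN (1.34-fold) and MLST8 (1.23-fold).

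RefSeq promoter windows of 300 bases, 250 before to 50 after a start, matched 33 of the 37 genes by symbol and gave 52 windows. Windows were searched on both strands for GGAATG, the core bound by TEAD factors, the partners of TAZ. It occurred in 5 of the 52 windows (9.62%), against 14.0% of all 35116 windows, in SLC1A3, SLC1A5, SLC38A5, SLC38A6 and SLC43A2. The AP-1 motif TGANTCA, whose reverse complement has the same form, occurred in 8 windows (15.4%), against 7.71% of all, in SLC15A1, SLC1A3, SLC36A4, SLC38A1, SLC38A9, SLC43A2 and SLC7A8. TGCATCA, a core bound by C/EBP and ATF dimers, occurred in 5 windows (9.62%), against 2.63% of all, in SLC1A3, SLC1A4, SLC1A5, SLC1A7 and SLC38A7. No match of one motif overlapped a match of another in these windows. Several windows belong to 1 gene, and distant enhancers were not searched. These are matches of letters and not measured binding.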

How the data were processed

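Poly(A) RNA of 6 samples was sequenced, and the titles place 3 in siNT and 3 in siTAZ as biological replicates. Whether they were separate cultures on separate days is not given, so a p-value reflects only how these samples scatter, which can be technical. The submitters' processing notes name HISAT2, HTSeq, DESeq2 and FastQC and build hg19, with versions, annotation and strand setting not given in the sources used here. Values as deposited are a signal, reads divided by 1 size factor per library by the authors. All of them (100%) were whole multiples of 1 step within 0.001 of a read, and whole reads were recovered from these steps.

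The 17211 Ensembl identifiers were named from a table (16662) or GENCODE 29 (81), and 468 stayed unnamed. GENCODE 29 (GRCh38) also gave gene types, the longest transcript used for levels per kb, and exon overlaps. The main test was limma 3.58.1 in R 4.3.3 with an intensity trend on log2(value + 1) of the 17204 genes whose mean reached 1, with group as the single term. P-values were adjusted by Benjamini and Hochberg over all genes at 0.05. Fold changes on this scale understate the change of low genes, and folds printed as N-fold are ratios of group means of deposited values. Alternatives were a pseudocount of 0.5 or 10, no filter or 1 CPM in 3 samples, TMM or total count scaling, no intensity trend, a replicate block, each sample left out, and edgeR 4.0.16 (9630 genes called), DESeq2 1.42.0 and voom on the recovered reads. The tests were first tested on simulated data. Replicates were not copies of each other: chi-square per degree of freedom was 2.75 to 8.62 within groups.

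The members and lists were chosen with earlier results of these data known, and no list carries a p-value. Values of every sample are given for called members with a log2 fold change of at least 0.8 in size and a mean of at least 10, for the 6 highest per kb and for 7 set by name. From each list of other genes the 3 called genes with the smallest adjusted p are named, and SLC3A2, SLC3A1, CLTRN and ATF4 in any case. PHGDH, ALDH1L2, PSPH, ASNS, EIF2AK4, RHEB, KPTN and MLST8, which moved the other way, were added after the values were seen. Some other members are also given with every sample's value, chosen after the values were seen. Protein sequences were not used here.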

Additional observations from a re-analysis of the deposited data

How the results depend on the processing

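Of the 25 transporter genes called, 22 were called in the same direction under every alternative that tested them, and SLC38A2, SLC6A8 and SLC6A20 lost the call in at least 1. No gene changed direction with a call. Over the alternatives, 15 to 18 rose and 8 or 9 fell. With 1 CPM in 3 samples, 30 of the 37 were tested and genes changed at least 2-fold came to 5, against 8, because SLC7A9, SLC7A8 and SLC6A4 were filtered out. Leaving out 1 sample at a time gave 7 to 8 such genes, 16 to 17 rises, 8 to 9 falls and 8540 to 9674 calls over all genes, against 9604. Same-numbered samples had correlations of deviations from the group means of -0.53, -0.30 and -0.09. Such deviations cancel out within each group, so the correlations constrain each other and cannot settle whether samples were paired. The replicate block gave 8701 calls over all genes, with 17 rises, 8 falls and 8 changes of at least 2-fold among the transporter genes. It changed no call of a transporter gene. Total count scaling moved the median of all genes by 0.05 in log2. The size of low genes rests on the pseudocount: with 10 in place of 1, the log2 fold change was 3.83 for SLC6A19, 1.31 for SLC7A9, 1.14 for SLC7A8 and 0.89 for SLC6A4. At these depths a level of about 1 is a single read, and the 24 genes not listed cannot be placed.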

Other observations

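Within groups, siNT replicate 1 and siTAZ replicate 1 stood apart from their groups in opposite ways. Over 11466 genes with a mean level of at least 100, deviations from the group mean had a correlation of -0.53 between these 2 libraries, 0.47 between siNT replicate 2 and siTAZ replicate 1, and 0.41 between siNT replicate 1 and siTAZ replicate 3. This is across genes, which are not independent replicates. Abundant carriers showed it too: SLC38A2 was highest of siNT in replicate 1 and lowest of siTAZ in replicate 1, and SLC1A5 and SLC7A5 were lowest of siNT in replicate 1 and highest of siTAZ in replicate 1. SLC38A9, SLC38A11 and SLC1A1 were lowest of siTAZ in replicate 1, and SLC43A2, SLC36A1 and SLC6A19 highest.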
